A study of Mus musculus with 27 samples.

Results

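The circadian clock genes of the liver were followed over a reproductive cycle in the whole liver of BALB/c mice, which are inbred. The set holds 10 listed genes, matched by symbol to the gene identifiers of the deposited tables, out of 51826 genes listed there, and all 10 passed the filter on low counts. The animals, wild type and age matched, fell into 7 groups, 1 library per animal: nulliparous mice (NUL, never pregnant, n = 4), lactation day 10 (LAC, n = 3), days 2, 4, 6 and 8 after weaning (ID2, n = 3; ID4, n = 4; ID6, n = 6; ID8, n = 3; the labels call these involution days) and 4 weeks after weaning (REG, regressed, n = 4). According to the series' design text, breeding took place at an age of 10 to 12 weeks, litters were evened out, and weaning followed on lactation day 10 to 14. No treatment or allele other than the reproductive stage is named. The labels do not give the time of day at which livers were taken, so the clock time of a liver and its reproductive stage cannot be told apart in any comparison below.

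The mammalian clock is a transcriptional feedback loop. The proteins of Arntl (also called Bmal1) and Clock, or of Npas2 in the place of Clock, bind E-box sequences and activate the Per and Cry genes, whose proteins then repress that activation. Nr1d1 and Nr1d2 encode the REV-ERB repressors, which are activated through E-boxes and shut Arntl down through elements called RREs, and Dbp encodes an activator that binds D-boxes and is a direct E-box target with a deep daily rhythm in liver. In the liver of a nocturnal mouse, Dbp, Nr1d1, Nr1d2 and the Per genes are highest by day or around dusk, and Arntl, Npas2, Clock and Cry1 by night or around dawn. The first 6 are called the day arm here and the other 4 the night arm.

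The 10 genes are protein coding and are placed on GRCm38, in the GENCODE annotation. The activators are Arntl (ENSMUSG00000055116) at chr7:113207465-113314126 on the plus strand, Clock (ENSMUSG00000029238) at chr5:76209868-76304792 on the minus strand and Npas2 (ENSMUSG00000026077) at chr1:39193731-39363236 on the plus strand. The repressors are Per1 (ENSMUSG00000020893) at chr11:69095217-69109960 on the plus strand, Per2 (ENSMUSG00000055866) at chr1:91415982-91459324 on the minus strand, Per3 (ENSMUSG00000028957) at chr4:151003652-151044665 on the minus strand and Cry1 (ENSMUSG00000020038) at chr10:85131700-85185064 on the minus strand. The REV-ERB genes are Nr1d1 (ENSMUSG00000020889) at chr11:98767932-98775333 on the minus strand and Nr1d2 (ENSMUSG00000021775) at chr14:18204054-18239127 on the minus strand, and the output gene is Dbp (ENSMUSG00000059824) at chr7:45705088-45710203 on the plus strand.

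Letters that match these elements were found in the reference promoters of several of these genes. The sequences below show the matches, and binding at them was not tested. RefSeq promoter windows of 300 bases (250 before and 50 after a start site, GRCm38.p6, the C57BL/6J reference and not BALB/c) were found for 9 of the 10 genes. Capitals mark the match, and the letters of each motif were chosen after these windows had been read. Arntl held 2 matches to the RRE letters ANTAGGTNA, close to its start sites, at chr7:113207493-113207521 and chr7:113207529-113207557 on the plus strand:
Arntl, first RRE match: ttggtcggaaAGTAGGTTAgtggtgcgac
Arntl, second RRE match: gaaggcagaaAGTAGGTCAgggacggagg
Per3 held 2 matches to the D-box letters TTATGNAA within the 95 bases at chr4:151044796-151044890 on the minus strand, upstream of its start site:
Per3, both D-box matches: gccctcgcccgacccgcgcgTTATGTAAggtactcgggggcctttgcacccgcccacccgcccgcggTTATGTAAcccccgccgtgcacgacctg
Per1 held 1 D-box match and 1 match to the E-box letters CACGTG (chr11:69098915-69098942 and chr11:69098773-69098798, plus strand), and Cry1 held 1 E-box match (chr10:85185099-85185124, minus strand):
Per1, D-box match: gggcctggcaTTATGCAAcccgcctccc
Per1, E-box match: cacccaagtcCACGTGcagggatgtg
Cry1, E-box match: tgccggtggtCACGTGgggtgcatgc
Searched on both strands, the E-box letters occurred in 7.15% of 32851 such windows of all genes, the D-box letters in 3.38% and the RRE letters in 2.04%. Counted by gene, the shares were 8.09%, 3.99% and 2.33% of 27025 genes. No letters of these 3 kinds were in the windows of Npas2, Clock, Nr1d1, Nr1d2 or Dbp.

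Expected counts, the authors' estimates of the reads from each gene, totalled 41120650 to 75664540 per library. Levels are given as CPM (counts scaled by library size) and fold changes as log2 values with their SE. A call means an adjusted p under 0.05 in edgeR's quasi-likelihood test, by Benjamini-Hochberg over the 16428 genes tested. All 7 hepatocyte markers were detected in every group, and Alb, which makes up most of their sum, stood at 159800 to 203210 CPM in LAC and at 113940 to 124210 CPM in ID2, both above NUL (74654 to 98164 CPM). Cps1 stood at 5730 to 6847 CPM in ID2, above NUL (3172 to 4945 CPM) and LAC (4009 to 4813 CPM), while Hnf4a overlapped between these 3 groups (464 to 771 CPM). The 4 Kupffer cell markers summed to 511 to 568 CPM in ID4 and 397 to 660 in ID6, above every liver of NUL (294 to 376), LAC (194 to 277) and ID2 (277 to 341), with 336 to 440 in ID8 and 313 to 396 in REG. Markers of the exocrine pancreas, 6 genes, summed to 1289 CPM in liver ID2_31 and to no more than 103.4 CPM in any other. The 4 erythroid markers summed to 16.6 to 30.96 CPM in ID8, 50.6 to 258 CPM in ID6 and 329 to 1169 CPM in the other groups (highest in ID2_39), and the part of these markers in the results was not tested. The numbers in the animals' titles were under 200 in 7 livers (ID2_31, ID2_39, ID4_13, ID4_15 and all of ID8) and 200 or over in the other 20, a difference that the labels do not explain. In bulk tissue, fewer cells of a type and less RNA per cell cannot be told apart. The labels do not tie the animals to cages or litters, so p-values measure the spread between these animals.

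Of the 10 clock genes, 6 differed among the 7 stages: Dbp, Per3 and Nr1d2 of the day arm and Arntl, Npas2 and Cry1 of the night arm (edgeR joint test, adjusted p from 0.00245 for Dbp to 0.0312 for Nr1d2). Of all genes tested, 27% were called. The 10 genes were chosen with earlier results of these data known, so this comparison of shares is no independent evidence. Per1, Per2, Nr1d1 and Clock were not called (edgeR adjusted p 0.689, 0.509, 0.469 and 0.208). The count was 4 without liver ID2_39, 7 without REG_203 and between these values without any other liver. Of the livers numbered 200 or over, 1 was of ID2 and none of ID8. The title number was under 200 in every ID8 liver and otherwise only in ID2 and ID4 livers. It can thus not be fully told apart from stage. With it as a covariate Dbp alone was called (edgeR adjusted p = 0.0400), with 19.7% of all genes, and among the 20 livers numbered 200 or over none of the 10 was called (smallest edgeR adjusted p 0.0978, for Dbp), where 13.1% of all genes were.

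**Figure D1:**
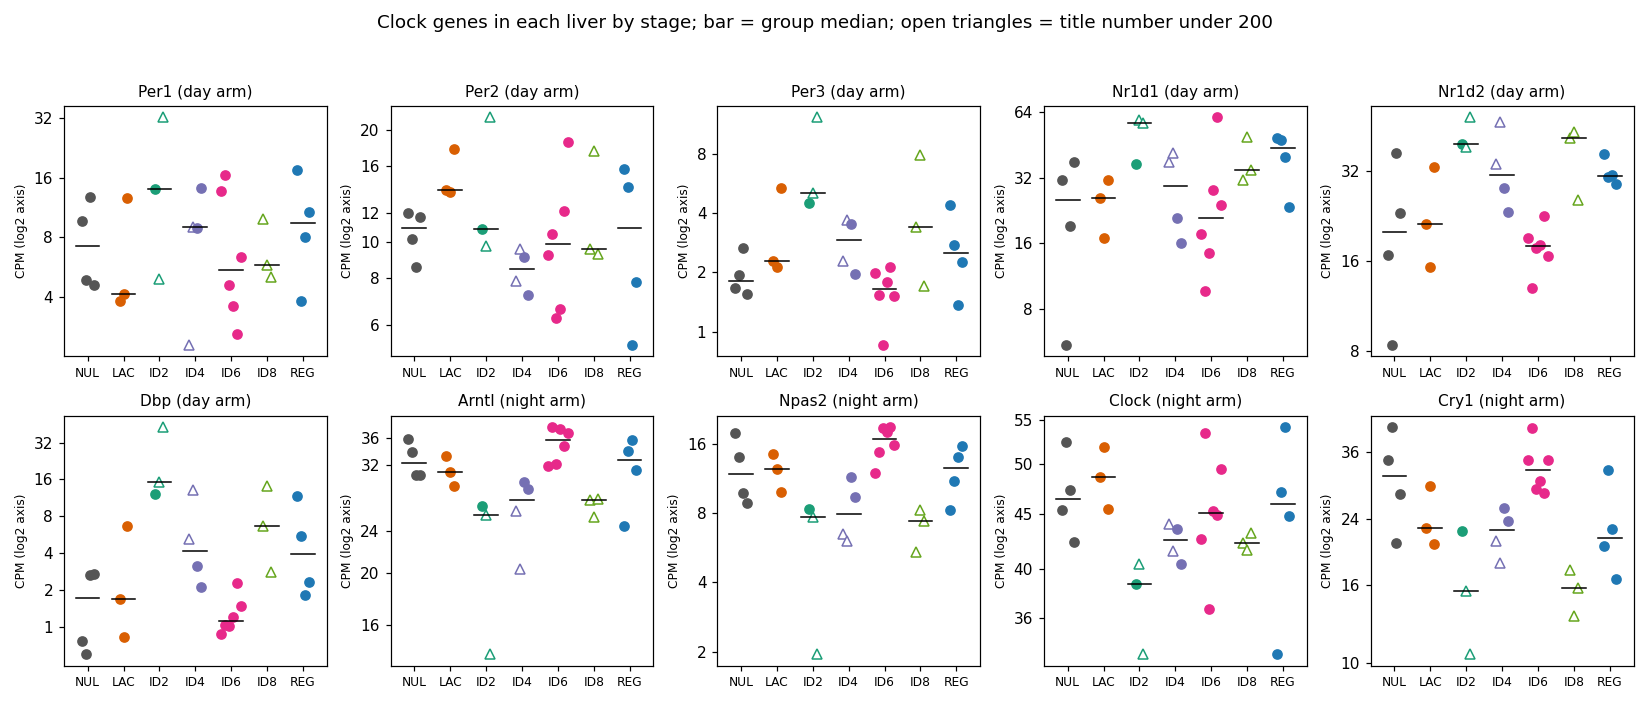
Level of each clock gene in each liver, in CPM on a log2 axis, by stage (1 marker per animal, bar at the group median, open triangles for title numbers under 200). The 3 ID2 livers hold the highest Dbp levels of any group by median, and the 6 ID6 livers sit low in Dbp and high in Arntl and Npas2.

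Of the activators, Clock and Arntl were expressed most evenly among the 10 genes. Clock spanned 33.3 to 54.2 CPM over all 27 livers, a ratio of 1.63 between the highest and the lowest. Arntl spanned a ratio of 2.69. Npas2, the partner that can replace Clock, spanned 9.77. Arntl stood at 30.6, 30.7, 33.9 and 35.9 CPM in NUL and at 29.3, 31.1 and 33.3 CPM in LAC. In ID2 it stood at 14.1, 25.8 and 26.8 CPM. Each ID2 liver lay below each NUL and each LAC liver, and Arntl fell by 0.56 against NUL (SE 0.16, edgeR adjusted p = 0.0444) and by 0.49 against LAC (SE 0.16, edgeR adjusted p = 0.0419). Without ID2_39 the log2 fold changes were -0.32 and -0.25 (edgeR adjusted p 0.290 and 0.269), and fits that each left out an animal kept these calls in 2 of 7 and 2 of 6. In ID4 the values were 20.4, 26.3, 28.9 and 29.7 CPM, and in ID6 they ran from 31.9 over a median of 35.8 to 37.8 CPM. Every ID6 liver was above every ID4 liver, a rise of 0.42 (SE 0.13, edgeR adjusted p = 0.0454). Arntl was again lower in ID8, at 25.5, 27.6 and 27.6 CPM, with no overlap with ID6, but the difference was not called (log2 fold change -0.39, edgeR adjusted p = 0.122). REG livers spread over both levels, at 24.6, 31.3, 34.1 and 35.7 CPM.

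Npas2, like Arntl, had its highest group mean in ID6 and its lowest in ID2. Its levels were 8.86, 9.78, 14.0 and 17.8 CPM in NUL, 9.90, 12.5 and 14.5 in LAC, and 1.94, 7.71 and 8.30 in ID2. The lowest of these, in liver ID2_39, was the lowest Npas2 value of the 27 livers. ID4 livers held 6.08, 6.52, 9.39 and 11.5 CPM, while ID6 livers held 12.0 to 19.0 CPM with a median of 16.9. ID8 livers held 5.44, 7.39 and 8.25 CPM, all below ID6, and Npas2 fell by 1.21 from ID6 to ID8 (SE 0.34, edgeR adjusted p = 0.0482). Leaving out 1 animal at a time kept that call in 1 of 9 fits, and edgeR's adjusted p reached 0.208 without ID8_101b. REG livers held 8.25, 11.1, 14.0 and 15.6 CPM, within the range of NUL apart from the lowest.

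Clock stood at 42.4, 45.4, 47.4 and 52.4 CPM in NUL, between 40.4 and 44.1 CPM in ID4, between 36.7 and 53.4 CPM in ID6 (median 45.05), between 41.6 and 43.2 CPM in ID8 and at 33.3, 44.8, 47.1 and 54.2 CPM in REG. These ranges overlapped for the most part. It was called in 1 comparison, with a fall of 0.38 from LAC to ID2 (SE 0.13, edgeR adjusted p = 0.0412). The 3 LAC livers held 45.5, 48.7 and 51.9 CPM and the 3 ID2 livers 33.3, 38.7 and 40.4 CPM. The groups did not overlap, yet the call was kept in 1 of 6 fits that each left out an animal, with an edgeR adjusted p of up to 0.186 (ID2_39 left out).

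Among the repressors, Cry1, which is placed in the night arm because it peaks late, had levels of 20.7, 27.9, 34.3 and 41.9 CPM in NUL and 20.6, 22.7 and 29.3 in LAC. ID2 livers stood at 10.5, 15.5 and 22.3 CPM. Cry1 fell by 0.95 from NUL to ID2 (SE 0.25, edgeR adjusted p = 0.0385), although the highest ID2 liver overlapped the lowest NUL liver, and the call was kept in 2 of 7 fits that each left out an animal. It stood at 18.3, 21.0, 23.7 and 25.6 CPM in ID4 and at 28.1 to 41.6 CPM in ID6 (median 32.3). The ID8 livers, at 13.3, 15.8 and 17.6 CPM, lay below all NUL and all ID6 livers. The fall from ID6 to ID8 was 1.08 (SE 0.24, edgeR adjusted p = 0.0137), the smallest adjusted p of the 10 genes between 2 stages, and it was kept in 6 of 9 fits that each left out an animal, with an edgeR adjusted p of up to 0.0618 (ID8_98b left out). Against NUL the log2 fold change at ID8 was -1.01 and was not called by edgeR (adjusted p = 0.0775), whereas DESeq2 gave an adjusted p of 0.00183. With the title number as a covariate it was -0.50 (SE 0.32, edgeR adjusted p = 0.595). ID8 and NUL livers differ wholly in title number range, so stage and number range cannot be told apart in this comparison. In REG, Cry1 stood at 16.6, 20.3, 22.5 and 32.3 CPM.

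Of the 3 Per genes, which encode the partners of the CRY repressors, Per3 was called among stages and Per1 and Per2 were not; the differences between the 3 were not tested. Per3 was the scarcest clock gene, with a mean of 0.752 ± 0.526 TPM (SD, n = 27; TPM is the authors' length-scaled level). It stood at 1.55, 1.67, 1.94 and 2.67 CPM in NUL and at 4.50, 5.07 and 12.3 CPM in ID2, without overlap. The rise was 1.89 (SE 0.47, edgeR adjusted p = 0.0287), held in 3 of 7 fits without 1 animal and had an edgeR adjusted p of 0.241 without ID2_39. LAC livers held 2.13, 2.28 and 5.37 CPM, ID4 livers 1.97, 2.30, 3.52 and 3.68, ID6 livers 0.857 to 2.14 (median 1.66), ID8 livers 1.71, 3.42 and 7.89, and REG livers 1.36, 2.27, 2.75 and 4.42 CPM.

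Per2 was the one day-arm gene for which LAC had the highest group mean. LAC livers stood at 13.6, 13.8 and 17.8 CPM, each above the NUL livers at 8.59, 10.2, 11.7 and 12.0 CPM, but the log2 fold change of 0.51 (SE 0.37) was not called (edgeR adjusted p = 0.452). Of all genes, 21.4% likewise did not overlap between LAC and NUL. Per2 was lowest as a group in ID4, at 7.21, 7.87, 9.11 and 9.59 CPM. ID2 livers held 9.78, 10.9 and 21.6 CPM and ID8 livers 9.27, 9.58 and 17.5 CPM, in each case 1 liver far above the other 2. Per2 also spread widely, from 6.25 to 18.5 CPM within ID6 and from 5.31 to 15.8 CPM within REG.

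Per1, which besides the clock responds quickly to glucocorticoids and other signals, varied more between animals of a stage than between stages. Its SD within stages was 0.99 on the log2 scale, higher than in 96.4% of all genes tested, and stages took up 13.2% of its variance against a median of 38.0% over all genes. Within NUL alone it ran from 4.59 to 12.7 CPM, within ID2 from 4.95 to 32.3 and within ID4 from 2.30 to 14.2. In LAC it stood at 3.83, 4.14 and 12.6 CPM, in ID6 between 2.59 and 16.6 (median 5.49), in ID8 at 5.07, 5.82 and 9.94 and in REG at 3.80, 8.02, 10.8 and 17.4 CPM, so all groups overlapped. No comparison called it by edgeR.

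The REV-ERB genes were both high in ID2. Nr1d1 stood at 36.9, 57.2 and 59.3 CPM in ID2, against 5.46, 19.3, 31.3 and 38.0 in NUL and 16.9, 26.0 and 31.2 in LAC. All ID2 livers were above all LAC livers, while the lowest overlapped NUL. The log2 fold changes of 1.12 (SE 0.56, to NUL, edgeR adjusted p = 0.316) and 1.05 (to LAC, edgeR adjusted p = 0.263) were not called. ID4 livers held 16.1, 20.97, 37.9 and 41.8 CPM, ID8 livers 31.4, 34.8 and 49.4, and REG livers 23.6, 39.9, 47.6 and 48.6 CPM. The highest Nr1d1 level of the 27 livers, 60.7 CPM, occurred in ID6_230, a stage whose other 5 livers held 9.60 to 28.0 CPM. Reads of Nr1d1 may be shared with Thra, whose exons overlap it by 263 bases on the opposite strand, and its counts were fractional in all 27 libraries.

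Nr1d2, the second REV-ERB gene, had no fractional counts. ID2 livers held 38.4, 39.4 and 48.4 CPM, above every NUL liver (8.38, 16.7, 23.2 and 36.7 CPM) and every LAC liver (15.2, 21.2 and 33.1 CPM). ID6 livers held 13.002 to 22.7 CPM (median 17.9), below every ID4 liver (23.3, 28.1, 33.8 and 46.7 CPM) and every ID8 liver (25.6, 41.4 and 43.1 CPM). The joint test called Nr1d2, but no comparison between 2 stages did (smallest edgeR adjusted p 0.0615, ID8 against ID6). REG livers were close together at 29.0, 30.6, 31.1 and 36.6 CPM.

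Dbp, the output activator, had the widest span of the 10 genes, from 0.594 CPM in NUL_221 to 42.8 CPM in ID2_39, a ratio of 72.1. NUL livers held 0.594, 0.772, 2.66 and 2.69 CPM and LAC livers 0.825, 1.67 and 6.65. ID2 livers held 12.1, 15.2 and 42.8 CPM, above all livers of both groups. Dbp rose by 3.80 from NUL (SE 0.84, edgeR adjusted p = 0.0149) and by 2.94 from LAC (SE 0.90, edgeR adjusted p = 0.0312), calls kept in 5 of 7 and 3 of 6 fits that each left out an animal. Liver ID2_224, at 12.1 CPM, is the one ID2 liver that shares the number range of NUL and LAC. ID4 livers held 2.13, 3.12, 5.26 and 13.05 CPM, ID6 livers 0.865 to 2.28 (median 1.12), ID8 livers 2.78, 6.70 and 14.2, and REG livers 1.81, 2.31, 5.48 and 11.7 CPM. From ID6 to ID8 Dbp rose by 2.58 without overlap (SE 0.73, edgeR adjusted p = 0.0483), a call kept in 1 of 9 fits that each left out an animal, with an edgeR adjusted p of up to 0.216 (ID8_14 left out). Its exons overlap those of Sphk2 by 539 bases on the opposite strand, and its counts were fractional in 26 libraries.

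Lactation was compared with the nulliparous state to ask what lactation changes, and 11.2% of all genes were called there. None of the 10 clock genes was (edgeR), none had an unadjusted p under 0.05, as 23.6% of all genes had, and DESeq2 called none. In a fit of these 2 groups alone edgeR called Per2 (log2 fold change 0.50, adjusted p = 0.0475), and its adjusted p was 0.442 to 0.687 in the other alternatives. The log2 fold changes ran from -0.37 for Cry1 (SE 0.25) to 0.87 for Dbp (SE 0.83). For Arntl the change was -0.07 (SE 0.15) and for Clock 0.05 (SE 0.12), so these activators were measured more closely than Dbp.

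At 2 days after weaning 4 of the 10 genes were called against NUL, where 3.24% of all genes were: Dbp and Per3 higher (as 2.32% of all genes), Arntl and Cry1 lower (as 0.919%). Day-arm fold changes were above 0 for 6 of 6 genes and night-arm ones below 0 for 4 of 4. The median was 1.11 over the day arm and -0.76 over the night arm, against -0.02 over all genes tested. Without ID2_39 the medians were 0.95 and -0.49, and 5 of the 6 day-arm fold changes were above 0, with Per2 at -0.040. In 6 of the 10 genes the groups did not overlap, as in 17.9% of all genes. Against LAC 3 were called (Dbp higher, Arntl and Clock lower), where 16.1% of all genes were, 8.48% higher and 7.64% lower. There, 6 of the 10 did not overlap either, as 35.7% of all genes. The comparisons share the ID2 livers, and the 10 genes were chosen with earlier results of these data known. Without ID2_39 none was called in either comparison, and without NUL_221 none against NUL and 1 without NUL_220 or without NUL_227. None was called against LAC without LAC_200 or without LAC_213. With the title number as a covariate none was called in either, and the Dbp difference from NUL was 2.65 in place of 3.80 (SE 0.85, edgeR adjusted p = 0.182). The Per3 difference was 1.55 in place of 1.89, that of Arntl -0.33 in place of -0.56 and that of Cry1 -0.65 in place of -0.95. Between livers numbered 200 or over, ID2_224 exceeded NUL by 2.85 in Dbp (SE 0.95, edgeR adjusted p = 0.523, with a single ID2 liver assumed to vary like the other groups).

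**Figure D2:**
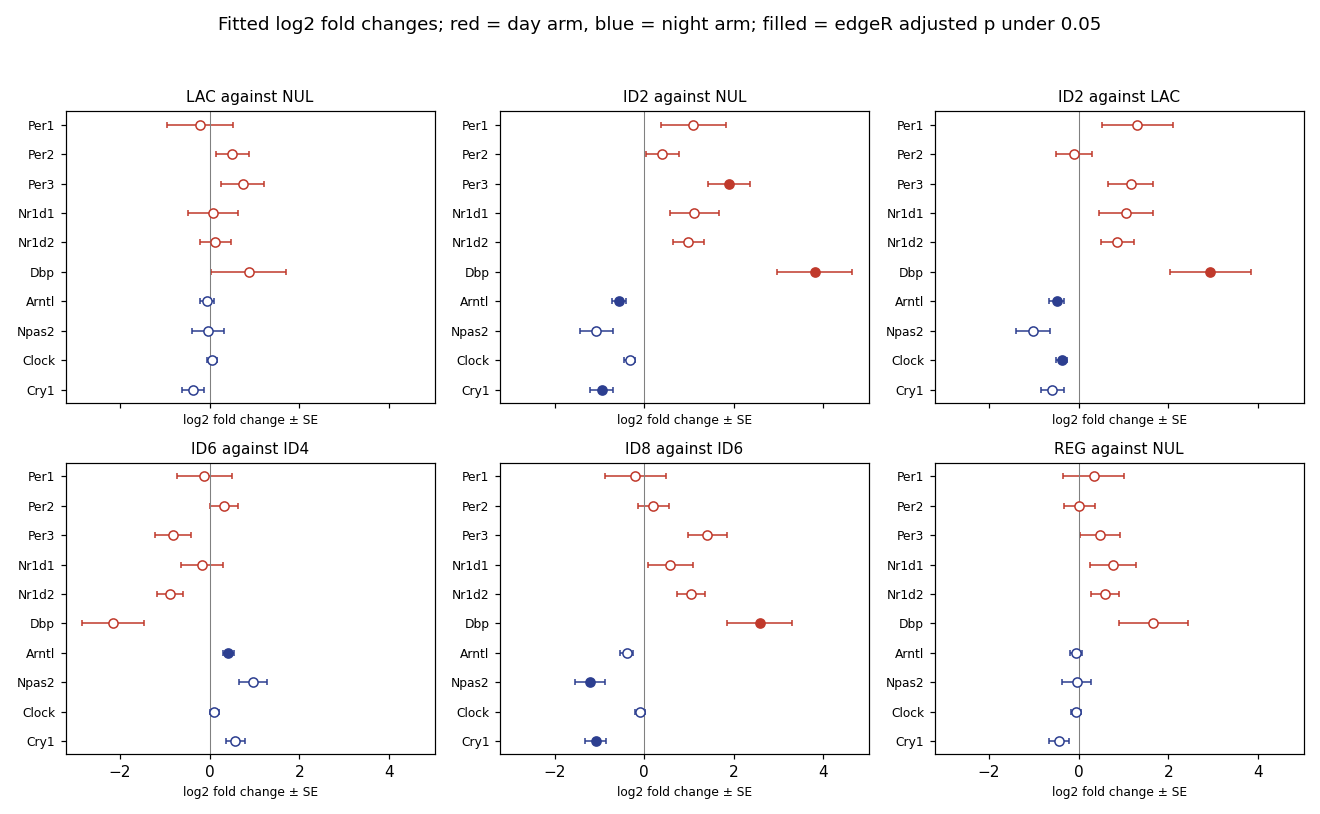
Fitted log2 fold change (x axis) with its SE for each of the 10 genes in 6 comparisons, red for the day arm and blue for the night arm, filled where the edgeR adjusted p was under 0.05. In ID2 against NUL all 6 day-arm genes lie to the right of 0 and all 4 night-arm genes to the left, and in LAC against NUL and REG against NUL no marker is filled.

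From ID2 to ID4 none of the 10 was called (edgeR; 2 at an unadjusted p under 0.05, as 13.9% of all genes, and none by DESeq2), and all 6 day-arm fold changes were below 0 and all 4 night-arm ones above 0. Of all genes, 1.49% were called there. The median was -0.90 over the day arm and 0.35 over the night arm. Without ID2_39 the medians were -0.51 and 0.081, with every sign kept. Per2 and Per3 did not overlap, as 16.2% of all genes. From ID4 to ID6, where 8.53% of all genes were called, Arntl alone was called among the 10 by edgeR, higher as 3.89% of all genes. DESeq2 called 5 of the 10, and 11.1% of all genes. Arntl, Npas2, Cry1 and Nr1d2 did not overlap, as 8.25% of all genes. That single call was lost without ID4_13, ID4_15, ID4_215, ID6_209, ID6_218, ID6_230 or ID6_232, and 2 were called without ID4_211 or ID6_201. From ID6 to ID8, where 4.12% were called, Dbp rose (as 2.37% of all genes) and Npas2 and Cry1 fell (as 1.75%). DESeq2 called 5, and 7.31% of all genes. Dbp, Nr1d2, Arntl, Npas2 and Cry1 did not overlap, as 10.1% of all genes. None was called without ID8_101b or without ID8_14, and 1 without ID8_98b, ID6_209, ID6_216, ID6_218 or ID6_232. All ID8 livers have numbers under 200 and all ID6 livers 200 or over, so stage and number range cannot be told apart there. With the covariate, estimated from ID2 and ID4 livers, none was called, and the Cry1 difference was -0.57 (SE 0.31, edgeR adjusted p = 0.394).

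Against NUL, none of the 10 was called in ID4, ID6, ID8 or REG by edgeR, where 4.25%, 1.08%, 0.499% and 0.0852% of all genes were. At an unadjusted p under 0.05 stood 3, 0, 5 and 1 of them, where 18.6%, 11.9%, 12.8% and 7.17% of all genes did. DESeq2 called 0, 0, 1 and 0, and 6.9%, 2.75%, 1.47% and 0.42% of all genes. Arntl did not overlap in ID4 (as 11.6% of all genes), nor did Dbp, Arntl, Npas2 and Cry1 in ID8 (as 11.9%). REG against ID8 called none either (2 at an unadjusted p under 0.05, as 9.02% of all genes, and none by DESeq2), with 0.0487% of all genes called. Npas2 did not overlap there, as 7.71% of all genes. In REG the fold changes against NUL ran from 1.67 for Dbp (SE 0.77, edgeR adjusted p = 0.669) to -0.45 for Cry1 (SE 0.23, edgeR adjusted p = 0.729). Per2 (0.016, SE 0.35), Npas2 (-0.044, SE 0.32), Arntl (-0.06, SE 0.14), Clock (-0.06, SE 0.11) and Per1 (0.33, SE 0.67) changed sign in at least 1 alternative.

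To compare the arms within each liver, the mean log2 CPM of the night-arm genes was subtracted from that of the day-arm genes. This difference carries no test, because its genes were chosen with results known. It was negative in 26 livers and 1.68 in ID2_39, and it covered 4.76 log2 units over the series. That liver held the highest level of 5 of the 6 day-arm genes and the lowest of all 4 night-arm genes among the 27. At the other end NUL_221, at -3.09, held the lowest Nr1d1, Nr1d2 and Dbp and the highest Cry1.

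Group medians were -1.95 in NUL, -1.95 in LAC, -0.39 in ID2, -1.38 in ID4, -2.34 in ID6, -0.62 in ID8 and -1.50 in REG. The 6 ID6 livers were the most alike, within 0.74 log2 units (-2.69 to -1.96), while the 4 NUL livers spread over 1.73 and the 4 REG livers over 1.80. All ID2 livers (-0.47, -0.39 and 1.68) and all ID8 livers (-1.33, -0.62 and -0.12) were above all ID6 livers. In LAC the values were -2.34, -1.95 and -0.68, and in REG liver REG_203 stood at -0.17 against -1.42 to -1.96 for the other 3. Livers numbered under 200 ranged from -1.33 to 1.68 (median -0.39, n = 7) and the others from -3.09 to -0.17 (median -1.96, n = 20). Within ID4 the 2 under 200 stood at -1.30 and -0.31 and the 2 others at -1.61 and -1.46, and within ID2 the single liver over 200, at -0.47, was the lowest of the 3. The part of the number range in these differences was not tested.

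**Figure D3:**
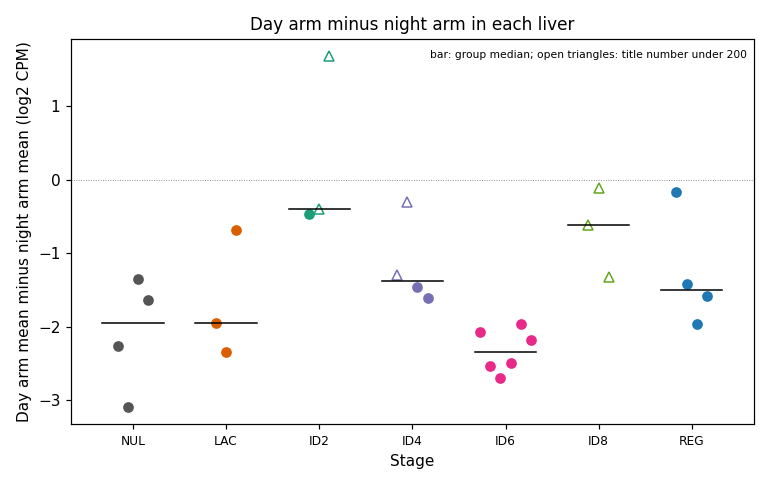
Mean log2 CPM of the day arm minus that of the night arm in each liver (y axis), by stage (1 marker per animal, bar at the group median, open triangles for title numbers under 200). ID2_39 lies highest, at 1.68, and the ID6 livers lie together between -2.69 and -1.96.

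Arntl was correlated with each of the other 9 genes over 27 livers (log2 CPM, two-sided permutation test, adjusted over the 9). These genes too were chosen with results known, so the p-values describe these livers and are no independent evidence that the arms are opposed. Night-arm genes went with Arntl: Pearson's r was 0.92 for Npas2 (Spearman's rho 0.89), 0.78 for Cry1 (0.80) and 0.71 for Clock (0.75), with adjusted permutation p of 3e-05, 3e-05 and 5.4e-05. Dbp went against it, with r = -0.83 and rho = -0.81 (adjusted permutation p = 3e-05), then Per3 with r = -0.77 and rho = -0.75 (4.5e-05) and Nr1d2 with r = -0.69 and rho = -0.80 (0.00018). Raw permutation p was 1e-05, the smallest 100000 permutations can give, for Npas2, Cry1 and Dbp. These 6 relations held without ID2_39 and ID4_15, the livers farthest from the Arntl median, with r of 0.84, 0.76, 0.68, -0.78, -0.68 and -0.70 in the same order.

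For the remaining 3 genes r with Arntl lay nearer to 0. Per1 had r = -0.43 and rho = -0.30 (adjusted permutation p 0.0255 and 0.138) and r = -0.15 without those 2 livers (adjusted permutation p 0.514), while among the 20 livers numbered 200 or over, which hold neither, r was -0.47 (adjusted permutation p 0.0459). Nr1d1 had r = -0.45 and rho = -0.45 (adjusted permutation p 0.0255 and 0.0237) and r = -0.39 without them (adjusted permutation p 0.0686). Per2 had r = -0.34 and rho = -0.15 (adjusted permutation p 0.0798 and 0.466). After stage means were subtracted and livers permuted within stages, r stayed at 0.84 for Npas2, 0.64 for Cry1, 0.63 for Clock, -0.64 for Dbp, -0.56 for Per3 and -0.44 for Nr1d2 (largest adjusted permutation p 0.00985), so these genes moved with or against Arntl between animals of 1 stage too. Among the 20 livers numbered 200 or over r was 0.79, 0.61, 0.71, -0.69, -0.66 and -0.59 in that order (largest adjusted permutation p 0.00888). Among the 7 others it was 0.89, 0.66, 0.91, -0.81, -0.70 and -0.63 (adjusted permutation p 0.0942 to 0.156).

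**Figure D4:**
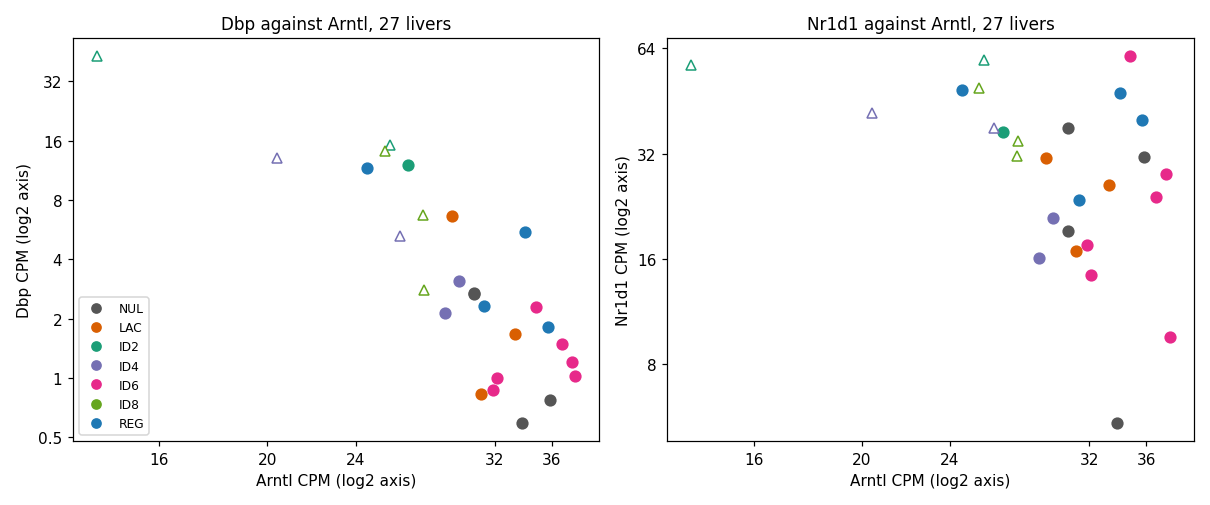
Dbp (left) and Nr1d1 (right) against Arntl in CPM, log2 axes, 1 marker per liver, coloured by stage, open triangles for title numbers under 200. Dbp falls as Arntl rises (r = -0.83), while Nr1d1 is spread over its range at high Arntl (r = -0.45).

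Per transcript length, the order of mean levels over all livers was Nr1d1 (16.2 ± 7.88 TPM, SD, n = 27), Arntl (14.0 ± 2.98), Cry1 (10.9 ± 3.92), Npas2 (8.37 ± 3.70), Nr1d2 (8.09 ± 3.04), Clock (6.62 ± 1.06), Dbp (4.93 ± 6.66), Per1 (2.62 ± 1.77), Per2 (2.43 ± 0.900) and Per3 (0.752 ± 0.526). Neighbours in this order from Nr1d1 down to Per2 differed by less than the larger SD of the pair. Within stages, Dbp and Per1 varied most (SD 1.06 and 0.99 on the log2 scale), and Clock varied least (0.17, against a median of 0.22 over all genes tested).

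Other genes of the clock were read from a list of 18, of which 17 were tested. The joint test called 4 of them, a share near the 27% of all genes. Tef, which encodes a D-box activator of the same family as Dbp, rose from 25.3 ± 2.45 CPM in NUL (SD, n = 4) to 61.2 ± 17.5 in ID2 (n = 3), by 1.28 (SE 0.23, edgeR adjusted p = 0.00263), and this call held in all 7 fits without 1 animal. Tef then fell from ID4 to ID6 by 0.88 (SE 0.19) and rose to ID8 by 0.98 (SE 0.20), both called by edgeR (adjusted p 0.00613 and 0.00969). Cry2, the second CRY repressor, rose from 26.4 ± 2.91 CPM in NUL to 39.7 ± 2.02 in ID2, by 0.59 (SE 0.12, edgeR adjusted p = 0.00604), also in all 7 fits. Ciart, a repressor of the ARNTL and CLOCK pair, was called higher in ID2 than in NUL and lower in ID4 than in ID2, at low levels (1.21 ± 1.12 CPM in ID2, SD, n = 3). Leaving out 1 animal at a time kept these calls in 3 of 7 and 6 of 7 fits. Fbxl21, which encodes a ubiquitin ligase subunit acting on CRY proteins, was called higher in ID2 than in LAC (log2 fold change 0.73), in 2 of 6 such fits. The other 13 were not called by the joint test. Over the list, the called genes of ID2 against NUL were 3 higher and 0 lower of 17, where 3.24% of all genes were called, and the median log2 fold change was 0.09, against -0.02 over all genes.

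Of 14 liver genes known as clock outputs, 13 were tested and 8 were called by the joint test, against 27% of all genes. The list was chosen with earlier results of these data known, so this count is no independent evidence. Por, Wee1 and Lonrf3 had the smallest adjusted p. Lonrf3 stood at 4.37 ± 0.883 CPM in NUL (n = 4) and at 1.98 ± 0.989 in ID2 (n = 3), a fall of 1.12 (SE 0.28, edgeR adjusted p = 0.0232), and rose by 0.85 from ID4 to ID6 (SE 0.23, edgeR adjusted p = 0.0218), calls kept in 5 of 7 and 7 of 10 fits that each left out an animal. Por, which encodes the reductase that feeds electrons to cytochromes P450, fell by 0.62 from ID4 to ID6 (SE 0.12, edgeR adjusted p = 0.00193). Wee1, a kinase that holds back mitosis and an E-box target, rose by 0.80 from NUL to LAC (SE 0.23, edgeR adjusted p = 0.0257) and fell by 0.87 from LAC to ID2 (SE 0.26, edgeR adjusted p = 0.0201), while Dbp, likewise an E-box target, rose at the second step. The Wee1 calls were kept in 5 of 7 and 3 of 6 fits that each left out an animal. In LAC against NUL 2 of the 13 were called, both higher, where 11.2% of all genes were, and in ID2 against NUL 1, lower (Lonrf3), where 3.24% were.

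Genes were ranked by likeness to Arntl (Pearson's r of log2 CPM over 27 livers). The 10514 ranked genes had a log2 CPM that averaged 1 or more and a symbol that was not a placeholder. The most alike were Npas2 (0.92, itself of the set), Lonrf3 (0.89), Crebzf (0.87), Lgalsl (0.82) and Cyp2j9 (0.81). Cry1 took place 6 and Clock place 26. The most opposite were Sdc1 (-0.84), Tef (-0.84), Dbp (-0.83, of the set), Med16 (-0.82) and Ifit3 (-0.80). For Nr1d1 the most alike were Pxn (0.81), Wdr11 (0.80), Prkag2 (0.78), Nr1d2 (0.76, of the set) and Klb (0.75), with Dbp at place 13 and Cry2 at place 15. The most opposite to Nr1d1 were Ap3s1 (-0.74), Nrbf2 (-0.73), Phospho2 (-0.72), Desi2 (-0.72) and Zfp24 (-0.71). The points of these correlations share stages and library scaling, and they are given as a description.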

How the data were processed

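Each library is the whole liver of 1 animal, extracted with Trizol and prepared with the NEBNext Ultra RNA kit, per the labels. The submitters' processing notes name STAR 2.6.1a, RSEM 1.3.1 and the builds mm10 and GRCm38; strand use and trimming are not given in the sources used here. The deposited expected counts are, per the file headers, the authors' estimates of the reads of each gene. The deposited TPM, per the file headers, is the authors' length-scaled level. Symbols and overlaps came from a GENCODE annotation of GRCm38, by Ensembl identifier. Libraries were run over several lanes or sequencers, per the series' design text.

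Expected counts were rounded and entered edgeR 4.0.16 (R 4.3.3): filterByExpr by stage (16428 genes, at least 99.978% of each library's counts), TMM scaling, 1 robust quasi-likelihood fit over 27 libraries, 11 comparisons and a joint test, two-sided, Benjamini-Hochberg adjusted. SE came from the fold change and its F statistic. The log2 CPM used a prior count of 2. Overlapping and antisense genes are uncertain. Alternatives used DESeq2 1.42.0 and limma 3.58.1. The fitting was tested on simulated data.

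The named genes were all 10 members, list genes called jointly (for outputs the 3 smallest adjusted p) and the 5 most alike and opposite to Arntl and Nr1d1; Hsph1, Dnajb1, Hspa1a and Cirbp were named after their values were seen. Members and lists were chosen with earlier results of these data known. No member had fewer than 39 counts in a library.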

Additional observations from a re-analysis of the deposited data

How the results depend on the processing

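No paired analysis was possible because no number occurs in more than 1 group. Counts of the 10 genes called changed by over 1.5 times as follows, with the share of all genes called in the same fit in percent, and smaller changes stand at the end. With DESeq2 they were 5 (ID6 against ID4, 11.1%), 5 (ID8 against ID6, 7.31%) and 1 (ID8 against NUL, 1.47%). Without the filter on low counts they were 1 (ID2 against NUL, 1.38%), 1 (ID2 against LAC, 7.88%), 0 (ID6 against ID4, 3.97%) and 1 (ID8 against ID6, 1.83%). On both log2(TPM + 1) and log2(TPM + 0.1), with limma, they were 1 (ID2 against LAC, 11.1% and 11.5%) and 3 (ID6 against ID4, 10.1% and 10.2%). With only the compared groups in the fit they were 1 (Per2, LAC against NUL, 8.69%), 1 (ID2 against NUL, 3.35%), 1 (ID2 against LAC, 18.2%), 6 (ID6 against ID4, 8.05%) and 5 (ID8 against ID6, 1.98%). With the title number as a covariate they were 1 (any stage, 19.7%) and 0 in ID2 against NUL (0.657%), ID2 against LAC (7.6%), ID6 against ID4 (4.07%) and ID8 against ID6 (0.0365%). Within livers numbered 200 or over, an alternative chosen after seeing the data, they were 0 (any stage, 13.1%; ID2 against NUL, 0.0632%; ID2 against LAC, 2.27%; ID6 against ID4, 1.6%), and within those under 200, chosen likewise, 0 (any stage, 0.681%). Without 1 animal they ranged from 4 to 7 (any stage), 0 to 4 (ID2 against NUL), 0 to 3 (ID2 against LAC), 0 to 2 (ID6 against ID4) and 0 to 2 (ID8 against ID6). RLE size factors changed no count. Smaller changes were 5 of the 6 without the filter (any stage, 14.8%), 5 (ID2 against NUL, 5.27%) and 4 (ID2 against LAC, 18.4%) with DESeq2, and 3 (ID2 against NUL, 2.12% and 1.94%) and 2 (ID8 against ID6, 5.22% and 5.03%) with limma on the TPM scales. The cause of these changes was not tested. Fits within a number range or of fewer groups hold fewer samples, and counts in fits of the compared groups alone went both up and down.

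The correlation of Arntl with Per1 was -0.38 with stage means subtracted, -0.37 on log2(TPM + 1) and -0.82 under number 200, and with Nr1d1 it was -0.23, -0.32 and -0.55 there and -0.19 at 200 and over, each past the threshold no longer. At 200 and over Per1 gave -0.47, still past it. Under number 200 (7 livers) it also missed the threshold for Per3 (-0.70), Nr1d2 (-0.63), Dbp (-0.81), Npas2 (0.89), Clock (0.91) and Cry1 (0.66). Without 1 liver r ran from -0.52 to -0.17 for Per1, from -0.44 to -0.087 for Per2 (without ID2_39) and from -0.52 to -0.40 for Nr1d1; without ID2_39 Per1 gave -0.17. No called fold change of a clock gene changed sign in any alternative, while 38 of the 99 that were not called did in at least 1.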

Other observations

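Of 7 genes that follow body temperature and heat shock, all 7 were called between LAC and ID2, where 16.1% of all genes were. This list was chosen with earlier results of these data known, so its count is no independent evidence. The joint test called 4 of the 7, against 27% of all genes, and none was called in any of the other 10 comparisons by edgeR, with up to 7 at an unadjusted p under 0.05 (ID4 against ID2, where 13.9% of all genes were). Hspa1b, a heat shock chaperone, stood at 212 ± 104 CPM in LAC (SD, n = 3) and 16.1 ± 2.69 in ID2 (n = 3), and it fell by 3.72 (SE 0.78, edgeR adjusted p = 0.00327). That call was kept in 6 of 6 fits that each left out an animal, as were those of Hsph1 and Hsp90aa1, which fell too. Dnajb1 and Hspa1a fell in calls kept in 2 of 6 and 1 of 6 fits, whereas the cold-inducible Cirbp and Rbm3 rose by 0.77 (SE 0.19, 5 of 6 fits) and 0.80 (SE 0.21, 4 of 6 fits). Hspa1a and Hspa1b have near-identical transcripts, so the division of reads between them is uncertain.

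Of 8 glucocorticoid-responsive genes, 2 were called by the joint test, a share near the 27% of all genes: the metallothioneins Mt1 and Mt2, which bind zinc. Both fell from ID4 to ID6, by 1.53 (SE 0.40) and 2.43 (SE 0.65) on the log2 scale (edgeR adjusted p 0.0227 and 0.0252), each in 8 of 10 fits that left out an animal. Tat was not called by the joint test (edgeR adjusted p = 0.0750).

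The day-arm genes were not always high together. Liver ID6_230 held the highest Nr1d1 level of the series, 60.7 CPM, beside a Dbp level of 2.28 CPM and a Per1 level of 2.59 CPM, while liver ID2_39 held 57.2 CPM of Nr1d1 beside 42.8 CPM of Dbp and 32.3 CPM of Per1. Liver ID6_209 held 16.6 CPM of Per1 beside 1.03 CPM of Dbp. In mouse liver Nr1d1 is known to peak before Dbp and Dbp before the Per genes. The livers' times of collection, which would bear on these values, are not in the labels.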
